A study of Mus musculus with 2 samples.

Results

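Pericytes are contractile support cells embedded in the basement membrane of capillaries, where they touch endothelial cells, regulate flow and vessel stability and are recruited by endothelial platelet-derived growth factor B. At birth the lung capillary bed switches to air breathing, fluid is cleared and pulmonary vascular resistance drops. The genes described here are 7 transcripts used to recognise pericytes: Kcnj8 and Abcc9, the pore and regulatory subunits of a vascular ATP-sensitive potassium channel, Trpc6, a cation channel, Rgs5, a regulator of G-protein signalling, Cspg4 (NG2) and Mcam (CD146), surface proteins, and Higd1b, a small protein with a HIG1 domain. They were taken by symbol, through gene identifiers, as 7 of the 43346 mouse genes in the tables, by a rule that uses no measured value. No gene of the 7 is taken here to mark pericytes alone. Vascular smooth muscle shares at least Kcnj8, Abcc9, Trpc6 and Rgs5, endothelium shares Mcam, and glial precursors of the nervous system share Cspg4.

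The samples were whole lungs of 2 newborn mice of strain B6NCrl, taken on postnatal day 0. Both lungs of 1 pup went into each library, pup 1 as replicate 1 and pup 3 as replicate 2. The labels name no treatment or altered gene, give both pups the same pregnancy number and the same donor identifier, and say that sex was not collected. There is 1 group, so no comparison between conditions exists, n is 2 throughout, and spread is the difference between pups. The labels do not say more about how separate the pups are, so each SD may be partly technical. Total expected counts over genes were 42189536 in pup 1 and 37026165 in pup 3. Markers of lung were present (6 of 6 at TPM 1 or more in both pups, summed at 105200 and 97160 TPM). TPM is an abundance scaled by effective transcript length that adds to the same total in each library and compares genes per length. In whole tissue, fewer cells of a type and less RNA per cell cannot be told apart.

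All 7 genes were at TPM 1 or more in both pups. They summed to 262.6 TPM in pup 1 and 240.9 TPM in pup 3, or 252 ± 15.4 TPM (mean ± SD, n = 2), which is 0.0252% of all TPM. Higd1b and Mcam held 83.5% of that sum in pup 1 and 83.1% in pup 3. The other 5 together reached 43.4 and 40.7 TPM. A sum over the 7 therefore follows a pair of them, of which Mcam is shared with endothelium. From the highest to the lowest mean level the order was Higd1b, Mcam, Kcnj8, Trpc6, Rgs5, Cspg4 and Abcc9, and the span from first to last was 62.5-fold.

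**Figure D1:**
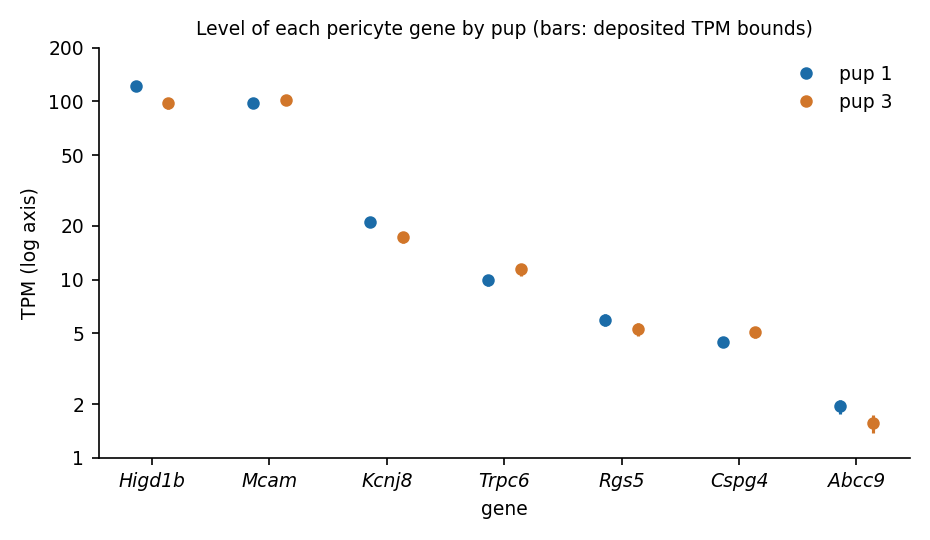
TPM of the 7 pericyte genes, on a log axis, with a point for each pup and the deposited lower and upper TPM bounds as bars, which are mostly narrower than the points. Higd1b and Mcam lie close together near 100 TPM, followed at a distance by Kcnj8 and Trpc6, while Abcc9 is lowest at 1.95 and 1.57 TPM.

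The channel subunits came first by role. An ATP-sensitive potassium (KATP) channel joins pore subunits to sulfonylurea receptor subunits, opens when the ATP supply of the cell falls, and relaxes mural cells by hyperpolarising them. Kcnj8 (ENSMUSG00000030247, mm10 chromosome 6, 142564837 to 142571614, minus strand), which encodes the pore subunit Kir6.1, was at 21.1 TPM in pup 1 and 17.4 TPM in pup 3 (19.2 ± 2.64, SD, n = 2) from 1423 and 997 expected counts. Abcc9 (ENSMUSG00000030249, chromosome 6, 142587862 to 142702315, minus strand), which encodes the sulfonylurea receptor SUR2, was at 1.95 and 1.57 TPM (1.76 ± 0.269, SD, n = 2) from 457 and 314 counts. Both were higher in pup 1, and within each pup the pore stood far above its partner. Per length, Kcnj8 was 10.8 times Abcc9 in pup 1 (95% counting interval 9.74 to 12.1) and 11.1 times in pup 3 (9.72 to 12.6), a log2 ratio of 3.45 ± 0.02 (SD, n = 2). The pups therefore gave nearly the same ratio of these subunits. Among the 12942 protein-coding genes at TPM 1 or more in both pups, Kcnj8 stood at percentile 55.8 and Abcc9 at percentile 4.58.

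The other KATP subunits, Kcnj11 (Kir6.2) and Abcc8 (SUR1), are known from pancreatic islets and neurons. Kcnj11 had 10 and 5 counts, or 0.29 and 0.17 TPM. Abcc8 had 54 and 48 counts, or 0.34 and 0.36 TPM. Both were under TPM 1 in both pups, so 2 of the 4 KATP genes were detected by that threshold and both were pericyte genes of the set. The fold of Kcnj8 over Kcnj11 was 72.8 in pup 1 (95% counting interval 39.7 to 153) and 102 in pup 3 (43.8 to 316), and its width comes from the few Kcnj11 counts. Abcc9 over Abcc8 was 5.74 (4.26 to 7.64) and 4.36 (3.22 to 6.05). On the log2(TPM + 1) scale these log2 ratios shrank from 6.43 to 4.04 and from 2.32 to 1.03, because a pseudocount of 1 is large against levels below TPM 1.

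Which SUR2 protein the tissue makes is written at the end of the gene. Abcc9 has alternative last coding exons, and the ends they encode are known as SUR2B, the smooth muscle form, and SUR2A, the form of heart and skeletal muscle. The exon of Abcc9-203 (GENCODE M21, mm10, chr6:142590369-142590503, minus strand) and that of Abcc9-201 (chr6:142594008-142594142, minus strand) are shown because all of the gene's estimated expression was placed on one of them. Both are coding, and capitals mark the bases that differ at the same position.
Abcc9-203: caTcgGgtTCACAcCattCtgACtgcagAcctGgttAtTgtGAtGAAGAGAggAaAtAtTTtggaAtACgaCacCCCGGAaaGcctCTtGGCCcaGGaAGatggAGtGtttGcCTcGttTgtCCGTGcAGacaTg
Abcc9-201: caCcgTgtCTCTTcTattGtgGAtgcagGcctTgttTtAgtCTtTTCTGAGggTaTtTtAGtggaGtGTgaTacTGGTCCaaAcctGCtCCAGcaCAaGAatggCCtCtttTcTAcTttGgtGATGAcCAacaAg
The exons are the same length, 135 bases or 45 codons, and 66 of their bases differ (51.1% identical). Translated, 37.8% of their residues are identical. The end encoded by Abcc9-203 shared 75.6% of its residues with the end of Abcc8 (SUR1), against 37.8% for that of Abcc9-201. Abcc9-203 therefore carries the end that resembles SUR1, which is a known property of SUR2B.

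The deposited isoform percent gave 100% of Abcc9 to Abcc9-203 in pup 1 and 100% in pup 3. The 3 transcripts with the Abcc9-201 exon (Abcc9-201, Abcc9-202 and Abcc9-204) were listed at 0 expected counts in both pups. The deposited TPM bounds show how firm that placement is. They ran from 1.14 to 1.97 TPM for Abcc9-203 in pup 1 and from 0.967 to 1.57 TPM in pup 3. For the 3 others the upper bounds lay between 0.308 and 0.397 TPM in pup 1 and between 0.253 and 0.291 TPM in pup 3. The bounds of the leading transcript and of each other transcript did not overlap in either pup. They are bounds of single transcripts, and none was given for the 3 others together, which share a last coding exon. The posterior mean isoform percent deposited beside the first estimate put Abcc9-203 at 82.1% in both pups. The leading transcript was thus the same by both estimates, and a minor share for the others is within the deposited bounds. Abcc9-203 was 7362 bases long in the annotation of the tables and 7306 in GENCODE M21, so the exon shown is that of the later model. Abcc9-202 differed more, at 7538 and 6213 bases. That it carries the Abcc9-201 exon is read from the later model and was not checked in the earlier one.

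Cardiac muscle markers, which bear on Abcc9 because heart muscle expresses it, were present in these lungs. Of the 6, 5 were at TPM 1 or more in both pups. Ryr2, the cardiac calcium release channel, was under that threshold but not absent. It was at 0.34 and 0.46 TPM, from 185 and 209 counts on a transcript of 16813 bases. The 6 summed to 563 TPM in pup 1 and 646 TPM in pup 3, led by Myl7 (288 and 358 TPM), Actc1 (170 and 150 TPM) and Tnnt2 (74.3 and 102 TPM). Abcc9 was higher in pup 1 and the marker sum was higher in pup 3. The part of cardiac muscle in the Abcc9 level was not tested.

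Kcnj8 and Abcc9 are neighbours. They lie on the same strand, 16247 bases apart, with 0 annotated genes between them. Stretches upstream of their outermost annotated starts are shown because the pups placed both genes on the same side and by nearly the same amount. Higd1b, on chromosome 11, was placed alike, so this is not particular to the neighbours, and shared control was not tested. The stretches come from RefSeq on GRCm38.p6, both on the minus strand, chr6:142571615-142571864 for Kcnj8 and chr6:142702316-142702524 for Abcc9, with CpG dinucleotides in capitals.
Kcnj8 upstream: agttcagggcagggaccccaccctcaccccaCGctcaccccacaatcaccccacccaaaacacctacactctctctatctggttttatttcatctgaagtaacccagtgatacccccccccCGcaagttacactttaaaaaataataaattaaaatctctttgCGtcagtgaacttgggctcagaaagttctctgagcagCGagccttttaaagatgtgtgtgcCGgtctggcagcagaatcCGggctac
Abcc9 upstream: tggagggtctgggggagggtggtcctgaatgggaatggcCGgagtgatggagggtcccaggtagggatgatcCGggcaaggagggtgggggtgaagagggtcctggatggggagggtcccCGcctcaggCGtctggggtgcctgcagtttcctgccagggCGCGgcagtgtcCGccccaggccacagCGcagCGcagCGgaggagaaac
The Kcnj8 stretch holds 6 CpG in 250 bases and is 49.2% G or C, and that of Abcc9 holds 10 CpG in 209 bases and is 68.4% G or C. Windows of the 250 bases before a RefSeq start were matched for 6 of the 7 genes. Over all 32851 windows the median was 6 CpG and 52.4% G or C. Mcam had the most CpG among the members, 25, Abcc9, Trpc6 and Cspg4 had 12 each, Kcnj8 had 6 and Rgs5 had 4. Of 3 short motifs searched on both strands, the CArG box of serum response factor was found in the window of Trpc6 (1 of 6 members, 1.47% of all windows), TGGGAA, the core of the RBPJ site in Notch targets, in that of Abcc9 (1 of 6, 21.6% of all windows) and TATAAA, the TATA box, in none of the 6 (12.4% of all windows). A match only says that these letters are there.

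Trpc6 forms receptor-operated, diacylglycerol-gated cation channels that let sodium and calcium into mural cells. Trpc6 (ENSMUSG00000031997, chromosome 9, 8544142 to 8680741, plus strand) was at 9.93 TPM in pup 1 and 11.4 TPM in pup 3 (10.7 ± 1.05, SD, n = 2) from 939 and 918 counts. It was the highest of the 6 TRPC channels read here in both pups. Trpc1, a channel subunit that joins other TRPC proteins, was at 4.11 and 4.37 TPM. Trpc2, Trpc4, Trpc5 and Trpc7 were under TPM 1 in both pups, and Trpc2 had 0 counts in both, which allows up to 0.0711 CPM in pup 1 and 0.0810 CPM in pup 3. Trpc6 was 2.42 times Trpc1 in pup 1 and 2.61 times in pup 3, so their order was the same in both pups. As an alternative, counts were divided by the full length of each gene's longest transcript at 10% or more of the gene. The log2 ratio over Trpc1 was then 1.85 in place of 1.33. The tables hold 1 transcript of Trpc6.

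Rgs5 speeds the return of G-protein alpha subunits to rest and so shortens signals from vasoconstrictor receptors. It is among the best known pericyte markers of brain and retina. Rgs5 (ENSMUSG00000026678, chromosome 1, 169655501 to 169695813, plus strand) was at 5.96 TPM in pup 1 and 5.28 TPM in pup 3 (5.62 ± 0.481, SD, n = 2) from 761 and 572 counts. Its percentile among detected coding genes was 23.7. Of the 10 proteins of the R4 subfamily of RGS, 6 were at TPM 1 or more in both pups, and 3 of them lay above Rgs5 in both pups. Rgs2, which acts on Gq signals, was at 117 and 124 TPM, Rgs3 at 55.4 and 60.2 TPM, and Rgs4 at 14.3 and 13.3 TPM. Rgs5 held 0.0511 of the level of Rgs2 in pup 1 and 0.0425 in pup 3. Against Rgs4 it held 0.416 and 0.398. Rgs5 was thus far below Rgs2 and Rgs3 in both pups and nearer to Rgs4. With counts over the longest transcript at 10% or more, the log2 ratio of Rgs5 over Rgs2 was -2.99 in place of -4.42, with the same direction. Rgs1, Rgs8, Rgs13 and Rgs21 were under TPM 1 in both pups. Of the Rgs5 level, 98.9% and 98.5% were assigned to Rgs5-201.

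**Figure D2:**
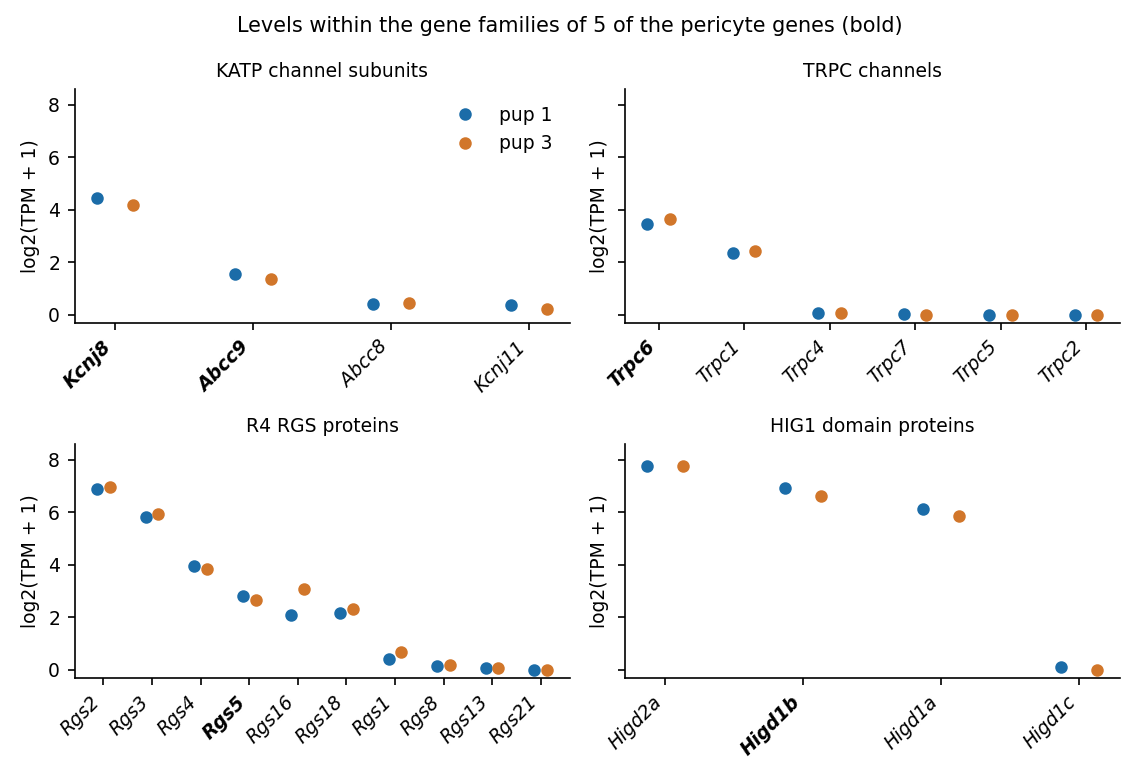
Level as log2(TPM + 1) of the KATP, TRPC, R4 RGS and HIG1 genes read here, with a point for each pup and 5 of the pericyte genes in bold. Kcnj8 and Trpc6 lead the genes shown with them, Rgs5 lies below Rgs2, Rgs3 and Rgs4, and Higd1b lies between Higd2a and Higd1a.

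Among the surface proteins, Mcam is an adhesion molecule of the immunoglobulin family and Cspg4 a membrane-spanning proteoglycan. Mcam (ENSMUSG00000032135, chromosome 9, 44134469 to 44142727, plus strand) was at 97.4 TPM in pup 1 and 102 TPM in pup 3 (99.7 ± 3.20, SD, n = 2) from 8722 and 7792 counts, the deepest count of the 7 genes. Cspg4 (ENSMUSG00000032911, chromosome 9, 56865033 to 56899870, plus strand) was at 4.49 and 5.10 TPM (4.80 ± 0.431, SD, n = 2) from 1153 and 1114 counts. Both had a higher TPM in pup 3. The deposited bounds of Mcam overlapped (93.9 to 98.2 TPM in pup 1 and 97.8 to 103 TPM in pup 3). Those of Cspg4 did not (4.17 to 4.68 TPM in pup 1 and 4.71 to 5.30 TPM in pup 3). Pdgfrb, the receptor through which pericytes are recruited, was at 35.7 and 33.7 TPM. Cspg4 held 0.126 of the Pdgfrb level in pup 1 and 0.151 in pup 3. Cspg4 is thus far below Pdgfrb per length, and its single listed transcript is 8050 bases long.

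Of the other cell types that may express these surface proteins, endothelium and glial precursors were read here by their own markers. Smooth muscle markers are given further below. All 7 endothelial markers were at TPM 1 or more in both pups and summed to 1143 and 1249 TPM, led by Egfl7 (365 and 416 TPM), Cldn5 (353 and 382 TPM) and Pecam1 (152 and 145 TPM). How much of the Mcam level is endothelial was not tested. Markers of glia and oligodendrocyte precursors, which share Cspg4, were at TPM 1 or more in both pups for 1 of 5. The 5 of them summed to 2.17 and 1.91 TPM, Olig1 and Olig2, which define oligodendrocyte precursors, had 0 counts in both pups, and Sox10 and Ngfr were under TPM 1 in both. S100b was the one detected, at 1.70 and 1.18 TPM from 76 and 45 counts. Which cell types the Cspg4 level comes from was not tested.

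Mcam is made in forms with a long or a short cytoplasmic tail, which differ by whether a coding exon near the end is kept. Mcam-201 keeps it and Mcam-202 skips it. The exon (GENCODE M21, mm10, chr9:44141275-44141392, plus strand, 118 bases, coding) is shown with the last coding bases of each form, since the forms read the same letters there in different frames.
Mcam-201 skipped exon: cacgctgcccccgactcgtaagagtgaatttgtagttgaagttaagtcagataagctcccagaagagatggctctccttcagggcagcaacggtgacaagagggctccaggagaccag
Mcam-201 last coding stretch: ggagagaaatacatcgatctgaggcat
Mcam-202 last coding stretch: ggagagaaatacatcgatc
The last coding stretches start at the same base of chromosome 9, 44141784, and end at 44141810 and 44141802. The forms share their first 599 codons, after which Mcam-201 has 49 codons more and Mcam-202 has 7.

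Mcam-201, the long form, held 55.5% of the gene in pup 1 and 63.4% in pup 3 (59.5% ± 5.59, SD, n = 2). Mcam-202, the short form, held 43.5% and 35.1% (39.3% ± 5.93, SD, n = 2). The long form led in both pups, and both forms were well expressed. Mcam-201 was at 54.1 TPM in pup 1 (deposited bounds 49.5 to 56.8) and 64.7 TPM in pup 3 (58.5 to 68.0), which do not overlap. Mcam-202 was at 42.4 TPM (37.8 to 45.4) and 35.8 TPM (30.1 to 39.9), which do. The gene total was nearly equal between pups while the split between its forms differed, by -7.91 percentage points for Mcam-201 (pup 1 minus pup 3), with 1 library on each side and no test. The other 3 Mcam transcripts together held at most a few percent.

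Higd1b belongs to the HIG1 family of small mitochondrial membrane proteins, whose relatives Higd1a and Higd2a take part in respiratory chain assembly. Higd1b (ENSMUSG00000020928, chromosome 11, 102835849 to 102838040, plus strand) was at 122 TPM in pup 1 and 98.2 TPM in pup 3 from 1960 and 1351 counts, and its deposited bounds (114 to 126 and 91.2 to 102 TPM) did not overlap. The relatives are widely expressed genes. Higd2a was at 214 and 218 TPM and Higd1a at 69.4 and 57.4 TPM, while Higd1c had 1 and 0 counts. Higd1b was 1.76 times Higd1a in pup 1 and 1.71 times in pup 3, with both genes higher in pup 1. With counts over full transcript length this log2 ratio was 0.32 in place of 0.79, which moves the fold by less than 1.5 times.

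Higd1b had 3 annotated transcripts with the same 294 coding bases (98 codons) and different first exons. Higd1b-203, whose first exon lies furthest upstream (102835849 to 102835960), held 62.7% of the gene in both pups. Higd1b-201, whose first exon (102836296 to 102836762) begins 447 bases downstream of it, held 33.6% and 34.6%. The shares of the first exons were therefore nearly the same in both pups, although the gene level was not. Higd1b-203 reached 76.3 and 61.6 TPM, and Higd1b-201 41.0 and 34.0 TPM.

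**Figure D3:**
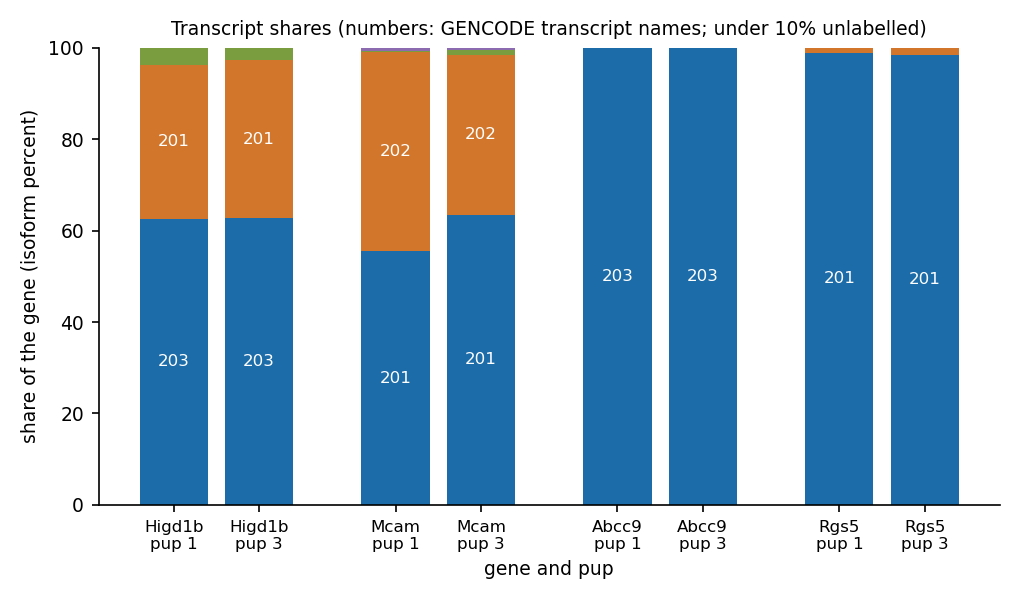
Isoform percent of the transcripts of Higd1b, Mcam, Abcc9 and Rgs5, stacked from 0 to 100 in a bar for each pup, with the transcript number written on shares of 10% or more. Abcc9 sits on a single transcript at 100%, Mcam is split between Mcam-201 and Mcam-202 with a larger long-form share in pup 3, and the Higd1b shares coincide between pups.

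Neighbours in the order of levels were compared by whether the pups overlapped. Higd1b and Mcam differed by 1.10-fold in their means and their pups overlapped, so their order is not resolved. Mcam was 5.18-fold above Kcnj8, Kcnj8 1.80-fold above Trpc6, Trpc6 1.90-fold above Rgs5 and Cspg4 2.72-fold above Abcc9, each without overlap of pups or of deposited bounds. Rgs5 was 1.17-fold above Cspg4, with pups that did not overlap (5.28 against 5.10 TPM) and deposited bounds that did, so that this step is not resolved either. Transcript length followed the order in part. Higd1b, the highest, has the shortest transcripts of the 7, at about 600 bases on average, and Cspg4 and Abcc9, the lowest, have the longest, at 8050 and 7362 bases. Mcam, at 2874 bases in pup 1 and 2883 in pup 3, is longer than Kcnj8 (2188), which lay below it, and Cspg4 is longer than Abcc9. Over detected coding genes the median level was 61.7 TPM below 1000 bases (1236 genes), 25.3 from 1000 to 2000, 14.3 from 2000 to 4000 and 8.17 TPM at 4000 bases and over (2405 genes). The part of length in the order of the 7 genes was not tested.

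The pups were then set side by side as 1 library against 1 library, with expected counts scaled over the whole table and no replicate check, so that ratios carry counting intervals and no p-value. A gene was said to differ at 2-fold or more with at least 50 counts over both libraries and a 95% interval that left out 1. Of all 15790 genes with enough counts, 220 (1.39%) differed, 101 higher in pup 1 and 119 higher in pup 3. Of the 7 pericyte genes 0 differed, and at 1.39% for all genes that count says nothing particular about them. The largest member ratio was that of Abcc9, 1.31-fold higher in pup 1 (95% interval 1.13 to 1.51, log2 0.39), and Higd1b had nearly the same, 1.30-fold (1.21 to 1.40, log2 0.38). Kcnj8 was 1.28 times as high in pup 1 (1.18 to 1.39) and Rgs5 1.19 times (1.07 to 1.33). Intervals of these 4 left out 1, as did those of 46.1% of all genes tested. For Mcam the ratio of pup 1 over pup 3 was 1.00 (0.975 to 1.04), for Cspg4 0.929 (0.855 to 1.01) and for Trpc6 0.918 (0.838 to 1.01), and these intervals included 1. By TPM, which is scaled otherwise, the deposited bounds of Cspg4 did not overlap between pups. Nor did those of Trpc6 (9.16 to 10.4 TPM in pup 1 and 10.5 to 11.9 TPM in pup 3).

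Thus 5 of the 7 ratios were above 1 and 2 below it, with a median log2 ratio of 0.26 against -0.00 over all genes tested. The median absolute log2 ratio was 0.26 for the 7, 0.14 for all genes tested and 0.12 for the 9655 genes with 771 to 16514 counts, the range of the members. The log2 ratio of Mcam was close to the median of all genes under each scaling: it was 0.01 as given, -0.03 with total counts, where the median was -0.035, and -0.07 on the log2(TPM + 1) scale, where it was -0.062. Spike-ins are among the features that are no mouse gene, which held 0.000827% of counts in pup 1 and 0.000975% in pup 3. Scaling by them therefore rests on few counts, and its counting error was not computed. Scaled by spike-in counts, 243 genes differed, 161 higher in pup 1 and 82 higher in pup 3, and the median of all genes moved to 0.15. Mcam was at 0.16 there. Against that shift, Cspg4 (log2 0.05) and Trpc6 (0.03), which became positive, still lay below the median of all genes, and Higd1b (0.53) and Kcnj8 (0.51) above it.

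**Figure D4:**
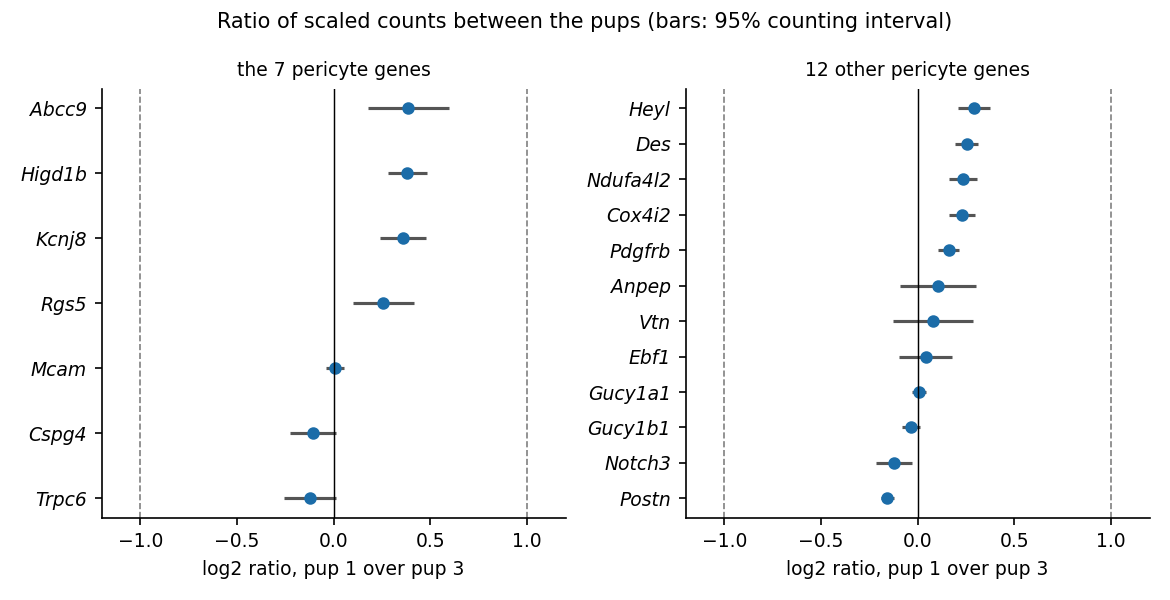
Ratio of pup 1 over pup 3 in scaled counts for the 7 members and 12 other pericyte genes, on a log2 axis, with 95% counting intervals as bars, equality as a solid line and the 2-fold threshold as dashed lines. Abcc9, Higd1b, Kcnj8 and Rgs5 lie above equality and Mcam, Cspg4 and Trpc6 have intervals that include it, while no gene reaches 2-fold.

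The relatives of the members were read in the same comparison. Of the R4 RGS proteins 1 differed, Rgs16, which was chosen for mention after its values were seen. Rgs16 had 239 and 455 counts, 3.31 and 7.40 TPM, and a log2 ratio of -1.08, higher in pup 3. It fell short of 2-fold with spike-in scaling (-0.93), which rests on few counts, and on the log2(TPM + 1) scale (-0.96). Rgs5, in the same family, lay on the other side. Of the tested KATP (3), TRPC (2) and HIG1 (3) genes 0 differed, and Higd1a had a log2 ratio of 0.35 beside 0.38 for Higd1b.

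Other genes known from pericytes gave the surroundings of the 7. All 12 were at TPM 1 or more in both pups, 0 differed, and they summed to 819 and 826 TPM, with 9 ratios above 1 and 3 below and a median log2 ratio of 0.09. Postn, a matrix protein also made by fibroblasts, was at 178 and 214 TPM. Cox4i2 and Ndufa4l2, variants of respiratory chain subunits tied to oxygen supply, were at 201 and 181 TPM and at 124 and 111 TPM. Higd1b and Mcam lay below these 3 genes in both pups. The pups of Higd1b and Ndufa4l2 overlapped, as did their deposited bounds in pup 1 (114 to 126 and 118 to 126 TPM). The order of Higd1b and Ndufa4l2 is therefore not resolved. The other 9 were chosen for mention after their values were seen. Of these, Heyl, Vtn, Notch3, Ebf1 and Anpep had mean levels of 19.3, 9.61, 7.85, 7.55 and 4.44 TPM, in the same range as Kcnj8, Trpc6, Rgs5 and Cspg4. Gucy1a1, Gucy1b1, Des and Pdgfrb were higher, at 91.8, 87.5, 55.8 and 34.7 TPM. The median level of the 12 was 45.2 TPM, against 10.7 TPM for the 7 members.

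Ligands, receptors and matrix of pericyte recruitment were all detected (11 of 11, 0 differing, median log2 ratio 0.04), summed at 868 and 806 TPM. Col6a1 (341 and 304 TPM) and Col6a2 (239 and 214 TPM), chains of collagen VI and ligands of the Cspg4 proteoglycan, led the list, followed by Tgfbr2 (75.5 and 69.6 TPM), a receptor of transforming growth factor beta. Receptors for vasoactive ligands, which signal through the G proteins that RGS proteins return to rest, were detected for 8 of 11 (0 differing, median log2 ratio 0.01). The endothelin receptors Ednrb (104 and 86.6 TPM) and Ednra (50.7 and 48.3 TPM) were highest, followed by S1pr3 (39.0 and 45.2 TPM), a sphingosine-1-phosphate receptor. Adra1a, Avpr1a and Hrh1 were under TPM 1 in both pups.

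Smooth muscle shares at least 4 of the 7 genes, and its markers ranged from high to low levels. Among detected coding genes they ran from percentile 96.2 (Acta2) to percentile 8.55 (Lmod1). All 7 were at TPM 1 or more in both pups, 0 differed, and they summed to 576 TPM in pup 1 and 507 TPM in pup 3 with a median log2 ratio of 0.25. Acta2 (287 and 252 TPM), Tagln (129 and 111 TPM) and Actg2 (106 and 95.2 TPM), contractile proteins, led the list. Of the 7 ratios 4 were above 1 and 3 below it, those of Myh11 (12.8 and 17.8 TPM, log2 -0.39), Myocd (2.56 and 3.21 TPM) and Lmod1 (2.26 and 2.49 TPM), which were chosen for mention after their values were seen. The smooth muscle sum and Kcnj8, Abcc9 and Rgs5 were higher in pup 1, Trpc6 was not, and the part of smooth muscle in these levels was not tested. Alveolar fibroblast markers, led by Tcf21, Limch1 and Npnt, were detected for 6 of 6 and summed to 1343 and 1274 TPM with a median log2 ratio of 0.04. Median log2 ratios were -0.04 for the 7 endothelial and -0.28 for the 6 cardiac markers, and 0 genes differed in either list or among the fibroblast markers.

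**Figure D5:**
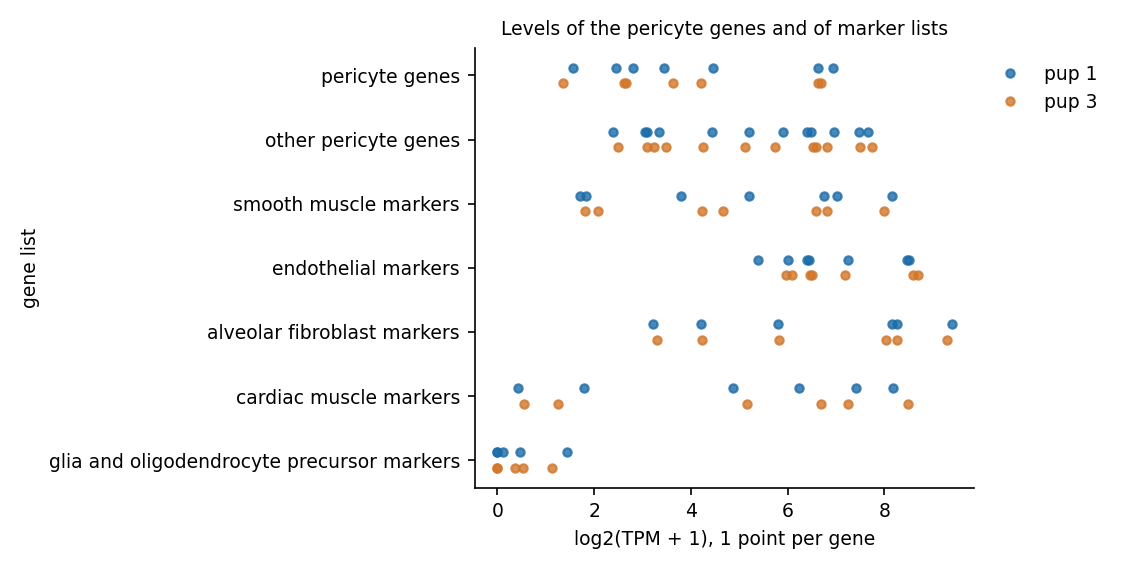
Level as log2(TPM + 1) of the pericyte genes and of the genes of 6 marker lists, with a point for each gene in each pup. Higd1b and Mcam lie among the endothelial markers, the other members lie below all of these, Abcc9 lies below every other pericyte gene, and the glial markers lie at or near 0 apart from S100b (1.70 and 1.18 TPM).

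Some counts are uncertain through overlap, since whether counting used strand is not given in the sources used here. Abcc9 overlaps the antisense gene 5330439B14Rik over 11868 bases, which had 1.01 and 0 counts. Mcam overlaps the antisense gene Gm10687 over 17 bases, which had 67 and 56 counts against 8722 and 7792 for Mcam. Trpc6 overlaps the lincRNA Gm32014 on the other strand over 36669 bases, for which no value was used here. None of the other 4 genes overlapped another annotated gene.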

How the data were processed

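RNA longer than 200 nt from both lungs of each pup was made into total RNA libraries from 10 ng, per the labels. The gene and transcript tables, as deposited, hold expected counts (estimated counts that need not be whole), TPM with lower and upper bounds of unstated level, and isoform percent, which splits a gene's abundance in percent over its transcripts, per the file headers. Posterior mean estimates stand beside them. The assembly mm10 and annotation M4 are named in deposited text files; the aligner and the counter were not given in the sources used here. Low input and length estimates can change which transcripts are seen.

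Names and coordinates came from GENCODE M21 on the same assembly, matched by identifier (42462 of 43346 genes). Features that are no mouse gene (26345) held 0.000827% and 0.000975% of counts and were left out. Rounded expected counts received TMM scaling in edgeR 4.0.16 under R 4.3.3, giving pup 1 an effective size 1.11 times that of pup 3. Log2 ratios carry a prior count of 0.5. Intervals are exact conditional binomial (Clopper-Pearson, scipy 1.17.1) and, like floors of 3 counts, cover counting error only. Folds between genes are ratios of TPM without a pseudocount. No test between conditions exists: the smallest exact 2-sided sign-flip p with 2 pups is 0.5. Alternatives were other scalings (DESeq2 1.42.0 size factors among them), count minimums, length estimates, a pseudocount and posterior means.

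The members, gene lists and tests were chosen with earlier results of these data known. Named are the 7 genes, the 3 highest of each family or list with pair partners, list members under TPM 1 in both pups, and transcripts at 10% or more. Some list genes are not reported here.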

Additional observations from a re-analysis of the deposited data

How the results depend on the processing

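Over 30 results, 148 alternative values were computed, of which 120 stayed within the spread or the counting interval of the reported value. Part of these 120 could not have moved. With n = 2, the value of either pup always lies nearer the mean than the SD. Leaving out members under TPM 1 in both pups changed nothing, since all members were at TPM 1 or more. Values of these kinds say nothing about how firm the results are. Of the 80 alternative values that carry a sign 76 kept it. The 4 changes were the ratios between pups of Mcam (total counts and log2(TPM + 1)) and of Cspg4 and Trpc6 (spike-in counts), given in the report. Scaling by total or spike-in counts moves all genes alike, so sign changes there say nothing of single genes. On the log2(TPM + 1) scale the log2 ratios became 2.87 for Kcnj8 over Abcc9, 4.04 for Kcnj8 over Kcnj11, 1.03 for Abcc9 over Abcc8, 1.15 for Trpc6 over Trpc1, -1.16 for Rgs5 over Rgs4, -4.20 for Rgs5 over Rgs2 and -2.62 for Cspg4 over Pdgfrb. This is by construction, since the pseudocount pulls low levels together. Another alternative divided counts by the full length of the longest transcript at 10% or more of the gene, which need not be the leading one. The log2 ratios were then 3.40 for Kcnj8 over Abcc9, 1.85 for Trpc6 over Trpc1, -2.99 for Rgs5 over Rgs2 and 0.32 for Higd1b over Higd1a. The cause was not tested beyond the change of length. The number of all genes that differ rose from 220 to 589 with at least 10 counts and to 709 with no count minimum, where more genes were tested, and fell to 85 on the log2(TPM + 1) scale. The number of members that differ was 0 under each of these. Leaving out a pup leaves the value of the other, which the report gives. Of the pairs, Kcnj8 over Kcnj11 has the widest counting interval, at 10 and 5 counts of Kcnj11. No paired analysis was possible because there is 1 group.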
